A study of Homo sapiens with 24 samples.

Results

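The genes described are 10 that act in the removal of mitochondria by autophagy: the mitophagy receptors BNIP3, BNIP3L and FUNDC1, the ATG8 family genes MAP1LC3A, MAP1LC3B, MAP1LC3C, GABARAP, GABARAPL1 and GABARAPL2, and the autophagy adaptor SQSTM1. They were taken by symbol, and all 10 were found among the 23106 gene symbols in the counts. RNA came from RCC4+VHL cells, a renal carcinoma line that had lost VHL, in which VHL was restored by stable transfection with a pcDNA3 expression vector. All 4 groups came from 1 such clone and so carry the same transgene. The groups held 6 libraries each, kept for 6 h at 21% oxygen (normoxia) or 0.5% oxygen (hypoxia) with either 0.1% DMSO, the vehicle, or 100 nM ITE, an indole ligand that activates the aryl hydrocarbon receptor (AHR). Groups are named by both, for example hypoxia + ITE.

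In mitophagy, a receptor in the outer mitochondrial membrane binds ATG8 proteins on the forming autophagosome through a short LC3-interacting motif, so that the organelle is enclosed and delivered to the lysosome. BNIP3 and BNIP3L (also called NIX) are receptors controlled mainly through transcription, and both are established targets of hypoxia-inducible factor (HIF), whereas FUNDC1 is controlled mainly by phosphorylation. The ATG8 proteins are ubiquitin-like and are attached to lipid in the autophagosome membrane. They form the LC3 subfamily (MAP1LC3A, MAP1LC3B, MAP1LC3C) and the GABARAP subfamily (GABARAP, GABARAPL1, GABARAPL2). SQSTM1, also called p62, links ubiquitinated cargo to them.

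Before the values, 3 promoters are shown because their genes behaved differently: BNIP3 rose most in hypoxia, MAP1LC3C was called lower, and MAP1LC3B did not pass the test. The RefSeq table (build GRCh38.p14) held promoters of 8 of the 10 genes, from 250 bases before to 50 bases after the start site. BNIP3L, which also rose in hypoxia, and MAP1LC3A were not among them. Of the genes that rose, only the BNIP3 promoter can therefore be shown. Each of the 8 matched GRCh37, the build of the counts, exactly and at 1 place on the same chromosome. Shown are the 250 bases before the start site, 5′ to 3′ along the gene. Capitals mark ACGTG, the core letters of a hypoxia response element, and GCGTG, which is shared by hypoxia response elements and the AHR element, each searched on both strands (CACGT and CACGC on the strand shown).
BNIP3, chr10:133795428-133795677, minus strand: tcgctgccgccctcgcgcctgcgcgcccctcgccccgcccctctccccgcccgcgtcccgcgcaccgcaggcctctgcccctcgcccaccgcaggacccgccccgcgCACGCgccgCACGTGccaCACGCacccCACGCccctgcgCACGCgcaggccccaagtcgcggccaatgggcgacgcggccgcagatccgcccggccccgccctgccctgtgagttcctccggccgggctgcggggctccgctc
MAP1LC3B, chr16:87425692-87425941, plus strand: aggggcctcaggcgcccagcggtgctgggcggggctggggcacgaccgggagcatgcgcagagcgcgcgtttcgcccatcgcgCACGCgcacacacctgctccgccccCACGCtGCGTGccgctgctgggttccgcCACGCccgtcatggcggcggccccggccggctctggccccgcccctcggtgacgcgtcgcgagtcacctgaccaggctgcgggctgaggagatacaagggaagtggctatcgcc
MAP1LC3C, chr1:242162401-242162650, minus strand: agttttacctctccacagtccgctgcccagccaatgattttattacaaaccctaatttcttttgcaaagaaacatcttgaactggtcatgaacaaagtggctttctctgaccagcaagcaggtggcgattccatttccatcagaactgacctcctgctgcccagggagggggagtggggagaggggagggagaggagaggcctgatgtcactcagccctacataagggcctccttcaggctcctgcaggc
The BNIP3 window held ACGTG 2 times, as the 2 strands of a single CACGTG that begins 134 bases before the start site, and GCGTG 4 times around it. The MAP1LC3B window held GCGTG 4 times and ACGTG 0 times, and the MAP1LC3C window held neither. Among 35116 RefSeq promoters of the same 300 bases, 21.4% held ACGTG, 36.5% held GCGTG and 48.4% held at least 1 of them, so these letters are common and a match describes the sequence only. GABARAPL2 had 1 of each, GABARAP had GCGTG once, and FUNDC1, GABARAPL1 and SQSTM1 had neither. Only 1 window per gene, the first listed, was searched, so any other start site of these genes is not covered.

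Values are CPM, the deposited counts scaled to a common library total after TMM normalisation. Totals ranged from 770094 (hypoxia + DMSO replicate 2) to 93851342 (normoxia + DMSO replicate 3), and hypoxia + ITE replicate 1 held 1357702. In the shallowest library 3 counts corresponded to 4.12 CPM, and in the deepest to 0.0294 CPM, for counting error only. Hypoxia + DMSO replicate 1, hypoxia + ITE replicate 3 and hypoxia + ITE replicate 6 stood apart with the lowest TMM factors (0.907, 0.883 and 0.732, against 0.946 or more in the others). Renal carcinoma cell markers (PAX8, PAX2, KRT8, KRT18, VIM) and VHL had counts in 24 of 24 libraries. VHL is carried by the transgene (147 to 701 CPM), so its counts do not mark the cell type. The sum of these markers and VHL ranged from 3317 to 4843 CPM in 23 libraries but reached 7077 CPM in hypoxia + ITE replicate 6. Markers of other cell types (PTPRC, CD3E, PECAM1, CDH5, ALB, HBB) had at most 0.810 CPM, and the macrophage marker CD68 had 5.50 to 31.4 CPM, highest in that same library. Their part in the results was not tested. The HIF target NDRG1 rose by 3.25 and DDIT4 by 3.53 on the log2 scale in hypoxia + DMSO, and the AHR target CYP1B1 rose by 2.51 in normoxia + ITE (adjusted p = 5.68e-15, 8.14e-15 and 7.64e-09, edgeR).

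**Figure D1:**
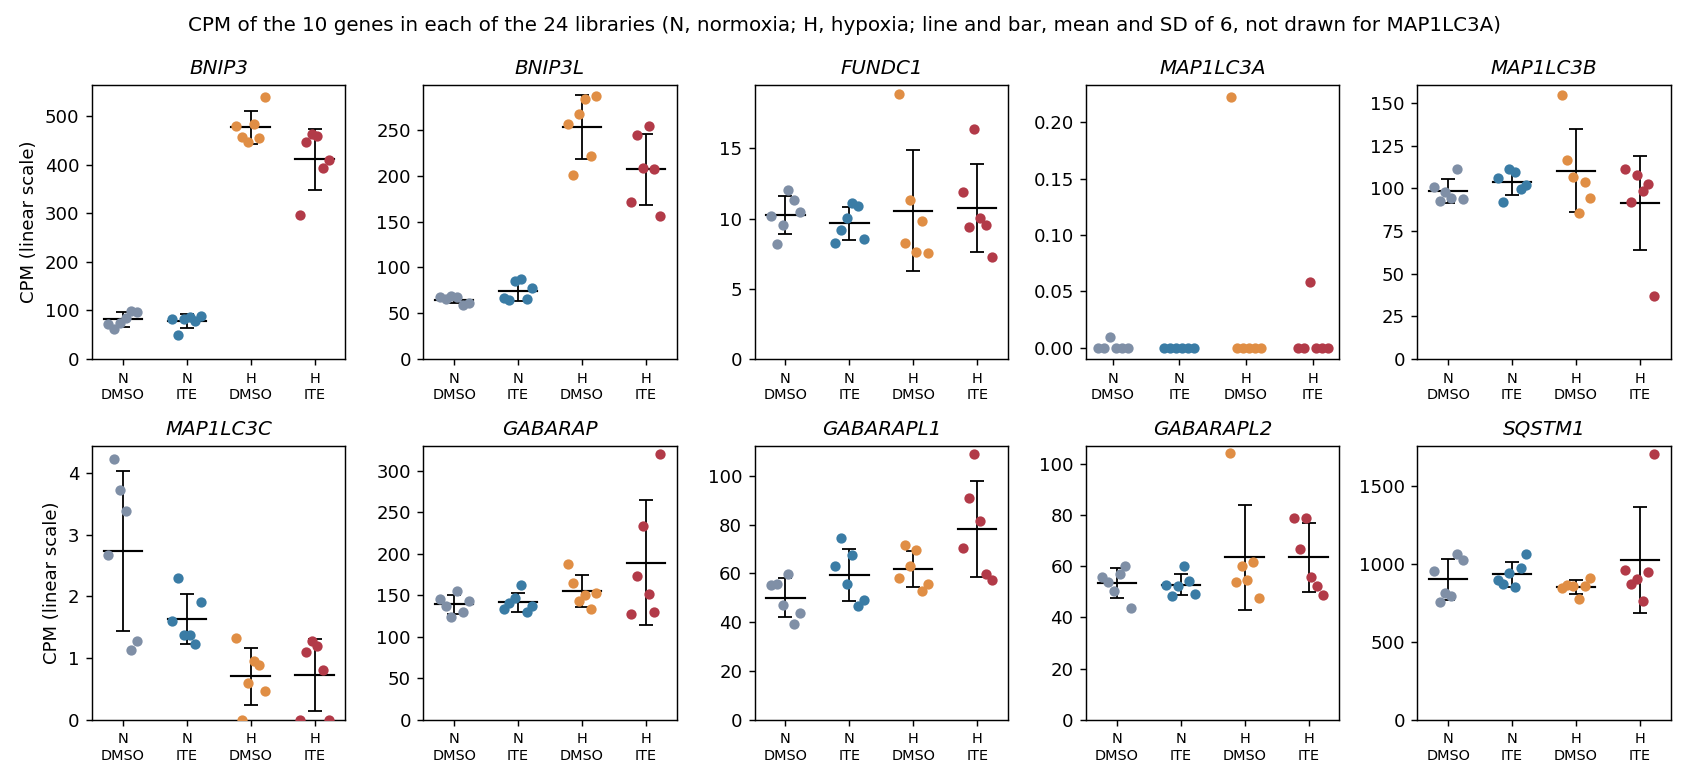
CPM of each of the 10 genes on a linear axis, 1 point per library in replicate order within each group, with the mean and SD of 6 libraries except for MAP1LC3A. BNIP3 and BNIP3L were separated by oxygen level without overlap, MAP1LC3C was highest in normoxia, and single libraries stood apart for MAP1LC3B and SQSTM1 in hypoxia + ITE.

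Of the 10 genes, 9 passed the filter on low counts, which left 11735 genes for testing. Hypoxia + DMSO was compared with normoxia + DMSO to ask which of these genes responded to low oxygen alone. BNIP3 and BNIP3L rose, MAP1LC3C was called lower, and the other 6 tested genes did not pass an adjusted p of 0.05, against 1.3% of all genes tested that passed. MAP1LC3C passed the filter only through the normoxia libraries, so its direction is not independent of the filter. In the upward direction 1.16% of all genes passed and in the downward direction 0.136%.

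BNIP3 lies at chr10:133781188-133795471 of GRCh37, on the minus strand, and its representative transcript has 6 exons. In normoxia + DMSO it had a lowest, median and highest value of 61.6, 79.6 and 98.6 CPM. In hypoxia + DMSO these were 446, 468 and 540.0 CPM. The groups lay far apart with no overlap, which was so in the upward direction for 1.8% of all genes tested. The rise was 5.86-fold (95% confidence interval 4.80 to 7.17), a log2 fold change of 2.55 with a standard error of 0.14 (adjusted p = 2.71e-13, edgeR), and was present in 6 of 6 same-numbered pairs, from 4.63-fold to 7.40-fold. Counts of same-numbered pairs, here and below, are descriptions only, since the fit did not take replicate numbers as pairs. The share of all genes that were higher in 6 of 6 is not given. By p-value BNIP3 ranked 3 of 11735. These are bulk samples, in which a change in the number of cells that express a gene and in RNA per cell cannot be told apart.

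BNIP3L, the closest relative of BNIP3, lies at chr8:26240570-26363152 on the plus strand and overlaps exons of PNMA2 on the other strand. It had 59.0, 66.5 and 68.7 CPM (lowest, median, highest) in normoxia + DMSO and 201, 262 and 287 CPM in hypoxia + DMSO. Again no libraries overlapped, and the normoxia libraries differed little from each other (coefficient of variation 6.17%). The rise was 3.90-fold (3.26 to 4.68), a log2 fold change of 1.96 with a standard error of 0.13 (adjusted p = 8.60e-12, edgeR), in 6 of 6 pairs. BNIP3L ranked 5 by p-value.

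These 2 related receptors rose by different amounts. The ratio of BNIP3 to BNIP3L within a library, in CPM, was 1.27 ± 0.298 (SD, n = 6) in normoxia + DMSO and 1.91 ± 0.227 in hypoxia + DMSO. The 2 groups ranged from 0.948 to 1.67 and from 1.67 to 2.27. The log2 ratio was higher by 0.62 in hypoxia (exact two-sided permutation test, p = 0.00433, adjusted p = 0.00866 over 4 ratio tests) and higher in 6 of 6 pairs. Dividing 1 gene by the other removes library scaling, so this difference does not depend on the normalisation.

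FUNDC1, the third receptor (chrX:44382885-44402105, minus strand), was the lowest of the 3 per kilobase and gave no detectable response. It had 8.15, 10.3 and 12.01 CPM in normoxia + DMSO and 7.54, 9.04 and 18.9 CPM in hypoxia + DMSO, with replicate 1 of hypoxia + DMSO well above the others. The groups overlapped. The log2 fold change was 0.07 (95% confidence interval -0.36 to 0.49, adjusted p = 0.959, edgeR), and without that replicate it was -0.17. Its relative FUNDC2, which also lies in the outer mitochondrial membrane, had 79.4 ± 7.77 and 95.5 ± 20.1 CPM (0.28, adjusted p = 0.584).

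**Figure D2:**
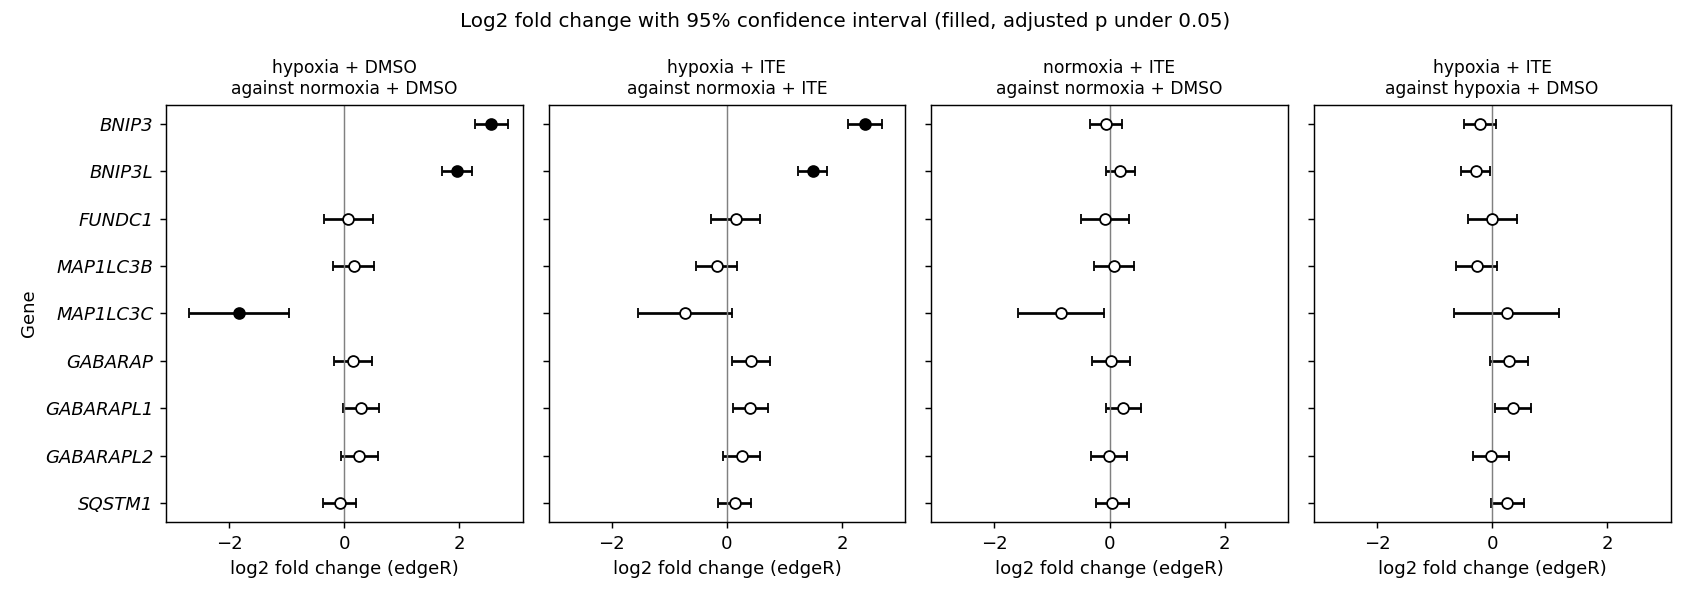
Log2 fold change of the 9 tested genes with its 95% confidence interval in 4 comparisons, filled where the adjusted p was under 0.05. BNIP3 and BNIP3L passed in both comparisons of hypoxia with normoxia, MAP1LC3C passed with DMSO, and no gene passed in either comparison of ITE with DMSO.

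Within the LC3 subfamily the members differed widely in level, and 2 were tested. MAP1LC3C was called lower in hypoxia + DMSO, a call that rests on the filter and on single libraries as given with its values. MAP1LC3A (chr20:33134658-33148149) had 3 counts in all 24 libraries together and was not tested. MAP1LC3B, the member most used as a marker of autophagosomes (chr16:87417559-87438385), had 92.6, 96.0 and 111 CPM in normoxia + DMSO. It had 85.4, 105 and 155 CPM in hypoxia + DMSO. The groups overlapped, with replicates 1 and 2 of hypoxia + DMSO above and replicate 4 below the normoxia range, and the log2 fold change was 0.16 (-0.19 to 0.51, adjusted p = 0.835). Its near copy MAP1LC3B2 had 3.19 ± 1.09 CPM in normoxia + DMSO and 3.37 ± 1.62 CPM in hypoxia + DMSO (log2 fold change 0.16, adjusted p = 0.936). Reads that mapped to more than 1 place were removed before counting, so reads shared by these copies may be missing from both.

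MAP1LC3C, the LC3C gene, is known in renal carcinoma as a gene whose expression depends on VHL. It lies at chr1:242158792-242162400, on the minus strand, with 4 exons and no annotated gene overlapping its exons. In normoxia + DMSO its counts were 21, 190, 380, 92, 8 and 12 in replicates 1 to 6, or 2.66, 4.23, 3.73, 3.39, 1.13 and 1.27 CPM. In hypoxia + DMSO they were 6, 0, 5, 5, 35 and 3, or 1.33, 0, 0.595, 0.951, 0.881 and 0.462 CPM. Each hypoxia library lay below the normoxia library of its number, but the groups overlapped, since normoxia + DMSO replicates 5 and 6 were as low as hypoxia + DMSO replicate 1. The count of 0 came from the shallowest library and allows up to 4.12 CPM (3 counts), so a difference was not detectable in it.

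MAP1LC3C had a log2 fold change of -1.83 with a standard error of 0.42 (95% confidence interval -2.70 to -0.96, adjusted p = 0.0184, edgeR). The gene passed the filter on low counts through the normoxia libraries, with 5 of 6 in normoxia + DMSO and 6 of 6 in normoxia + ITE above its limit of 1.25 CPM before TMM scaling and 0 in either hypoxia group, so its direction is not independent of the filter. With no filter the value was -1.83 as well. The filter decides which genes are tested, so this value does not bear on that dependence. The call was lost when any 1 of 6 libraries was left out (normoxia + DMSO replicates 2, 3 or 4, hypoxia + DMSO replicates 3, 5 or 6), with values from -1.90 to -1.67 and adjusted p from 0.0502 to 0.075. The sign was the same in all 24 such fits, which share nearly all their libraries and are no independent support for the direction.

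**Figure D3:**
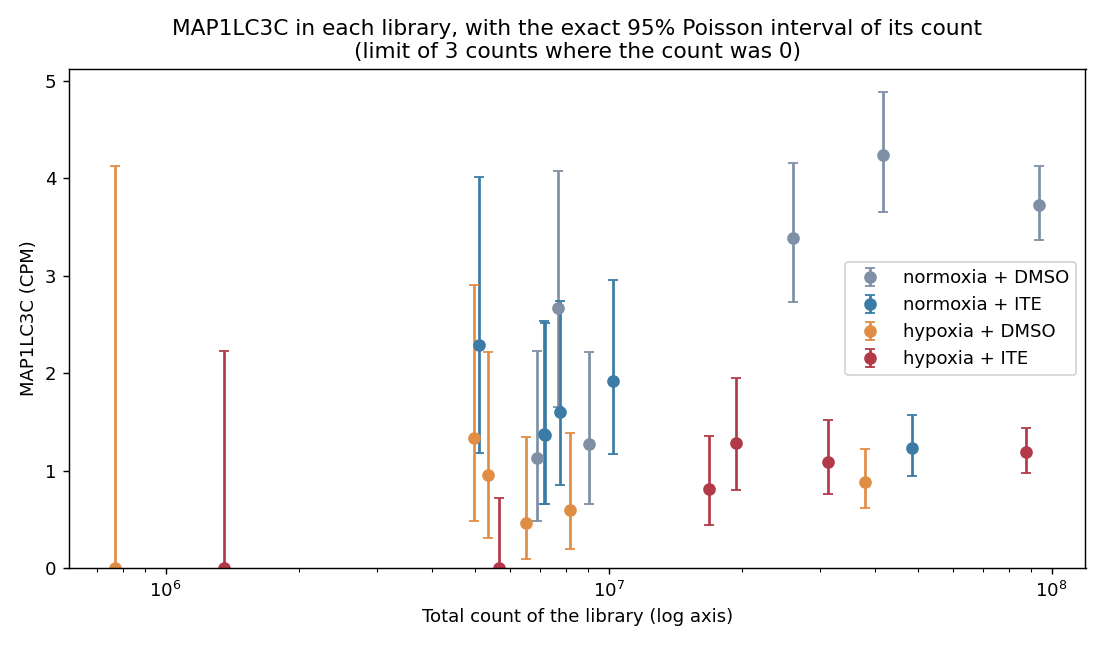
MAP1LC3C in CPM (linear axis) against the total count of the library (log axis), with the exact 95% Poisson interval of its count (for a count of 0, the limit of 3 counts) and groups by colour. Among the 9 deepest libraries, the 3 of normoxia + DMSO lay at 3.39 to 4.23 CPM, and the other 6, of which 1 was normoxia + ITE, at 0.810 to 1.29 CPM.

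The depth behind MAP1LC3C differed widely between libraries, and the deepest are the most precise. Normoxia + DMSO replicates 2, 3 and 4 were the deepest of their group and the highest, with 95% Poisson intervals of 3.65 to 4.88, 3.36 to 4.12 and 2.73 to 4.16 CPM. The deepest library of hypoxia + DMSO, replicate 5, had an interval of 0.614 to 1.23 CPM, and that of normoxia + ITE, also replicate 5, had one of 0.942 to 1.58 CPM. These intervals cover counting error only and do not compare the conditions. Within normoxia + DMSO, replicates 5 and 6 lay below replicates 2 to 4, with intervals of 0.488 to 2.23 and 0.656 to 2.22 CPM.

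The GABARAP subfamily showed small positive differences that did not pass the test. GABARAP (chr17:7143327-7145768), the highest ATG8 gene per kilobase, had 124, 140.1 and 155 CPM in normoxia + DMSO and 134, 152 and 188 CPM in hypoxia + DMSO (log2 fold change 0.16, adjusted p = 0.826). GABARAPL1 (chr12:10365057-10375727) had 39.2, 51.2 and 59.6 CPM and 52.8, 60.6 and 71.5 CPM. The groups overlapped in part. GABARAPL1 was higher in 6 of 6 same-numbered pairs without passing the test (0.29, -0.03 to 0.60, adjusted p = 0.578). GABARAPL2 (chr16:75600273-75611779) had 43.5, 54.8 and 59.8 CPM and 47.6, 57.1 and 103.9 CPM, the last value again in hypoxia + DMSO replicate 1 (0.26, adjusted p = 0.635). The ratio of GABARAPL1 to GABARAPL2 differed by 0.10 on the log2 scale (exact permutation p = 0.636).

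SQSTM1 (chr5:179233398-179265078), itself degraded by autophagy as protein, was the highest of the 10 per kilobase in normoxia. It had 755, 886 and 1066 CPM in normoxia + DMSO and 779, 860.0 and 909.6 CPM in hypoxia + DMSO. The hypoxia libraries fell within the range of the normoxia libraries, and the log2 fold change was -0.08 (-0.37 to 0.21, adjusted p = 0.912). On the linear scale the interval ran from 0.773-fold to 1.16-fold.

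Hypoxia + ITE was compared with normoxia + ITE to ask whether the same genes responded to oxygen when AHR was activated. BNIP3 and BNIP3L rose and the other 7 did not pass, against 2.35% of all genes tested that passed (1.89% upward, 0.46% downward). BNIP3 had 50.5, 81.9 and 88.9 CPM in normoxia + ITE and 296, 428 and 463 CPM in hypoxia + ITE. The groups did not overlap, as for 1.21% of all genes in that direction, and the rise was 5.28-fold (4.32 to 6.45; log2 2.40, standard error 0.14, adjusted p = 8.65e-13, edgeR). The lowest hypoxia + ITE value came from replicate 1, a shallow library.

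BNIP3L had 64.2, 71.7 and 87.6 CPM in normoxia + ITE and 156, 208 and 255 CPM in hypoxia + ITE. The groups were again apart, with the lowest value in hypoxia + ITE replicate 6. The rise was 2.80-fold (2.35 to 3.35; log2 1.49, standard error 0.13, adjusted p = 2.92e-09). The ratio of BNIP3 to BNIP3L was 1.05 ± 0.172 in normoxia + ITE and 2.01 ± 0.344 in hypoxia + ITE, a log2 difference of 0.93 with no overlap (exact permutation p = 0.00216, the smallest that 6 against 6 libraries can give, adjusted p = 0.00866).

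MAP1LC3C was lower in hypoxia + ITE than in normoxia + ITE in 6 of 6 pairs without passing the test. It had 1.60, 2.29, 1.38, 1.37, 1.23 and 1.92 CPM in normoxia + ITE replicates 1 to 6. In hypoxia + ITE it had 0, 1.09, 1.29, 1.19, 0.810 and 0 CPM. The ranges touched only at 1 hypoxia value, 1.29 CPM, above the lowest normoxia value. This gave a log2 fold change of -0.73 with a standard error of 0.40 (adjusted p = 0.306). Of the libraries at 0, replicate 1 allows up to 2.23 CPM and replicate 6 up to 0.724 CPM.

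For the other ATG8 genes, hypoxia + ITE replicates 3 and 6 set much of the spread. GABARAP had 127, 163 and 320.1 CPM in hypoxia + ITE, against 130, 139 and 162 CPM in normoxia + ITE, and its 2 highest values, 320.1 and 234, came from replicates 6 and 3. Its log2 fold change of 0.42 (adjusted p = 0.145) became 0.05 without the 3 libraries of the lowest TMM factors. GABARAPL1 had 57.2, 76.1 and 108.9 CPM against 46.8, 59.3 and 74.5 CPM and was higher in 6 of 6 pairs (0.41, standard error 0.15, adjusted p = 0.132). Without those 3 libraries its value was 0.38, nearly as large. GABARAPL2 (0.25, adjusted p = 0.360) and MAP1LC3B (-0.18, adjusted p = 0.580) did not pass either, and MAP1LC3B was at 36.9 CPM in replicate 6 and at 91.9 CPM or more in the other 5.

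FUNDC1 had 8.25, 9.61 and 11.1 CPM in normoxia + ITE and 7.24, 9.78 and 16.4 CPM in hypoxia + ITE (0.15, adjusted p = 0.723). SQSTM1 had 851, 919 and 1066 CPM in normoxia + ITE and 762, 929 and 1711 CPM in hypoxia + ITE, with the highest value in replicate 6. Its log2 fold change of 0.14 (adjusted p = 0.624) was -0.08 without the 3 libraries of the lowest TMM factors.

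Both comparisons of ITE with DMSO asked whether the ligand altered these genes at a fixed oxygen level. In normoxia 0 of 9 passed in edgeR, against 0.0511% of all genes, and 1 had an unadjusted p under 0.05, against 1.46%. This was MAP1LC3C, at 2.74 ± 1.29 CPM without and 1.63 ± 0.404 CPM with the ligand (-0.85, unadjusted p = 0.0287, adjusted p = 0.9998, lower in 4 of 6 pairs). DESeq2 also called 0. BNIP3 was at 81.5 ± 14.7 and 78.0 ± 13.9 CPM, with a log2 fold change of -0.06 (-0.33 to 0.22). The other 7 ranged from -0.08 to 0.24, and GABARAPL1 at 0.24 was higher in 6 of 6 pairs.

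In hypoxia 0 of 9 passed in edgeR and in DESeq2, against 0.0597% of all genes in edgeR, and 2 had an unadjusted p under 0.05, against 9.56%. BNIP3L was at 253 ± 34.9 CPM with DMSO and 207 ± 38.8 CPM with ITE, lower in 5 of 6 pairs (-0.29, -0.54 to -0.04, unadjusted p = 0.0271, adjusted p = 0.494). BNIP3 was at 477 ± 34.1 and 411 ± 62.7 CPM, also lower in 5 of 6 pairs (-0.21, -0.48 to 0.06, adjusted p = 0.597). GABARAPL1 was at 61.8 ± 7.51 and 78.2 ± 19.7 CPM, higher in 6 of 6 pairs (0.36, 0.05 to 0.68, unadjusted p = 0.0257, adjusted p = 0.494). None of these differences passed once adjusted across all genes.

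The interaction, which tests whether the oxygen response differed with ITE, gave 0 calls among the 9 genes and among all 11735 in edgeR, and 0 among the 9 in DESeq2. At an unadjusted p under 0.05 there was 1 of 9, against 3.19% of all genes. BNIP3L had a rise smaller by 0.48 on the log2 scale with ITE (-0.83 to -0.12, unadjusted p = 0.0107, adjusted p = 0.915). For BNIP3 the difference was -0.15 (-0.54 to 0.24, adjusted p = 0.929) and for MAP1LC3C 1.10 (-0.09 to 2.29, adjusted p = 0.915). That MAP1LC3C passed with DMSO and not with ITE is therefore not shown to be a difference between them.

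Set against neither stimulus, hypoxia + ITE gave 4 calls among the 9 genes, against 2.32% of all genes tested (1.79% upward, 0.528% downward). This comparison shares its control libraries with the one in DMSO. BNIP3 rose by 2.34 (adjusted p = 1.46e-12) and BNIP3L by 1.68 (adjusted p = 2.67e-10). GABARAPL1 rose by 0.65 (standard error 0.15, 1.57-fold, adjusted p = 0.0150) in 6 of 6 pairs, and its group means stood at 50.1 CPM with neither stimulus, 59.4 CPM with ITE, 61.8 CPM with hypoxia and 78.2 CPM with both. MAP1LC3C had a log2 fold change of -1.58, with a standard error of 0.37 (adjusted p = 0.0173), lower in 6 of 6 pairs. Hypoxia + ITE replicates 1 and 6 had a count of 0 for it. It passed the filter on low counts only through normoxia libraries, so here too its direction is not independent of the filter. The calls of GABARAPL1 and MAP1LC3C were lost when the 12 libraries of these groups were fitted alone (adjusted p = 0.130 and 0.156). That of GABARAPL1 was also lost without normoxia + DMSO replicate 5 or hypoxia + ITE replicate 3, and that of MAP1LC3C without normoxia + DMSO replicate 2 or 3, with adjusted p up to 0.0576 and 0.0681.

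Levels of different genes were compared per kilobase of representative transcript. In normoxia + DMSO, SQSTM1 was the highest at 318 ± 45.96 CPM per kilobase, followed by GABARAP at 105 ± 8.67, GABARAPL2 at 54.8 ± 5.93, BNIP3 at 52.8 ± 9.54, MAP1LC3B at 45.8 ± 3.31, GABARAPL1 at 26.6 ± 4.22, BNIP3L at 18.8 ± 1.16, FUNDC1 at 9.75 ± 1.29 and MAP1LC3C at 2.27 ± 1.07. Neighbours in this order were separated in their ranges except GABARAPL2 and BNIP3, and BNIP3 and MAP1LC3B. In hypoxia + DMSO, BNIP3 stood at 309 ± 22.1 CPM per kilobase beside SQSTM1 at 300.5 ± 14.9, with ranges that overlapped. BNIP3L moved to 73.3 ± 10.1 and overlapped GABARAPL2 at 65.2 ± 21.0, while the range of MAP1LC3C, at 0.583 ± 0.380, overlapped that of MAP1LC3A. That overlap came from the 0 of replicate 2, the shallowest library, where 3 counts corresponded to 4.12 CPM. The next lowest MAP1LC3C value, 0.382 in replicate 6, lay above the highest MAP1LC3A value, 0.230 in replicate 1. In hypoxia + ITE, SQSTM1 stood at 362 ± 121, BNIP3 at 267 ± 40.7 and GABARAP at 144 ± 56.9. The ranges of SQSTM1 and BNIP3 overlapped, as did those of BNIP3 and GABARAP, whereas GABARAP was separated from GABARAPL2, the next gene. Exons on the other strand overlap those of BNIP3L (PNMA2), MAP1LC3B (FBXO31), GABARAPL1 (GABARAPL1-AS1) and SQSTM1 (MGAT4B and MRNIP). Exons of GABARAP overlap an unnamed gene on the other strand and an unnamed protein-coding gene on the same strand. The strand setting of the counting is not given, so whether reads of the genes on the other strand enter these levels cannot be told. The part of the gene on the same strand in the level of GABARAP was not tested.

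**Figure D4:**
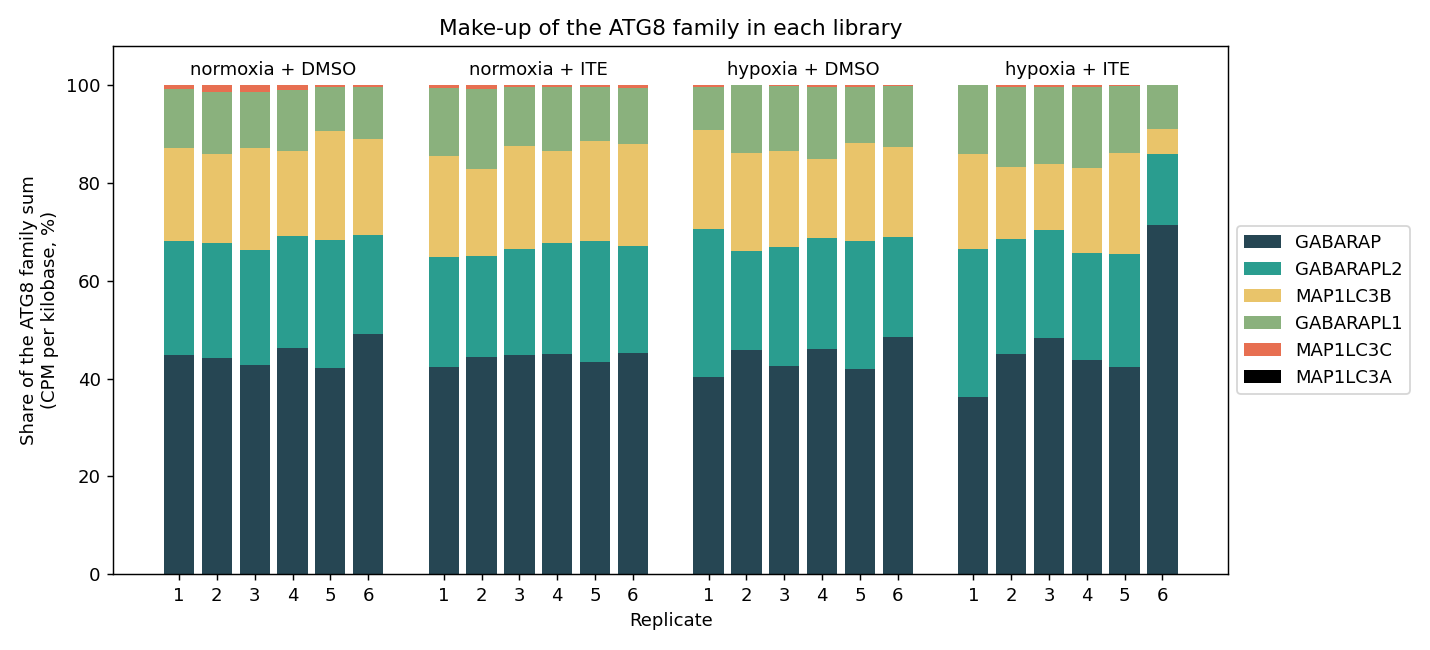
Share of each ATG8 gene in the summed CPM per kilobase of the 6 ATG8 genes, 1 bar per library. In hypoxia + ITE replicate 6 GABARAP took 71.4% and MAP1LC3B 5.06%, against at most 49.05% and at least 13.7% in the other 23 libraries.

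Shares within the ATG8 family are given as descriptions and were not tested. GABARAP accounted for 44.9% ± 2.52 of the summed CPM per kilobase in normoxia + DMSO and 44.3% ± 3.08 in hypoxia + DMSO. GABARAPL2 accounted for 23.3% ± 1.95 and 23.96% ± 3.79, MAP1LC3B for 19.6% ± 1.79 and 19.1% ± 1.62, and GABARAPL1 for 11.3% ± 1.38 and 12.5% ± 2.16. MAP1LC3C made up 0.963% ± 0.459 and 0.215% ± 0.124. With ITE, MAP1LC3B accounted for 19.9% ± 1.30 in normoxia and 15.1% ± 5.61 in hypoxia, and MAP1LC3C for 0.560% ± 0.150 and 0.211% ± 0.166. GABARAP stood at 44.2% ± 1.12 in normoxia + ITE and 47.8% ± 12.2 in hypoxia + ITE. The library with 71.4% was replicate 6, which also had the highest sum of renal carcinoma cell markers and VHL.

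**Figure D5:**
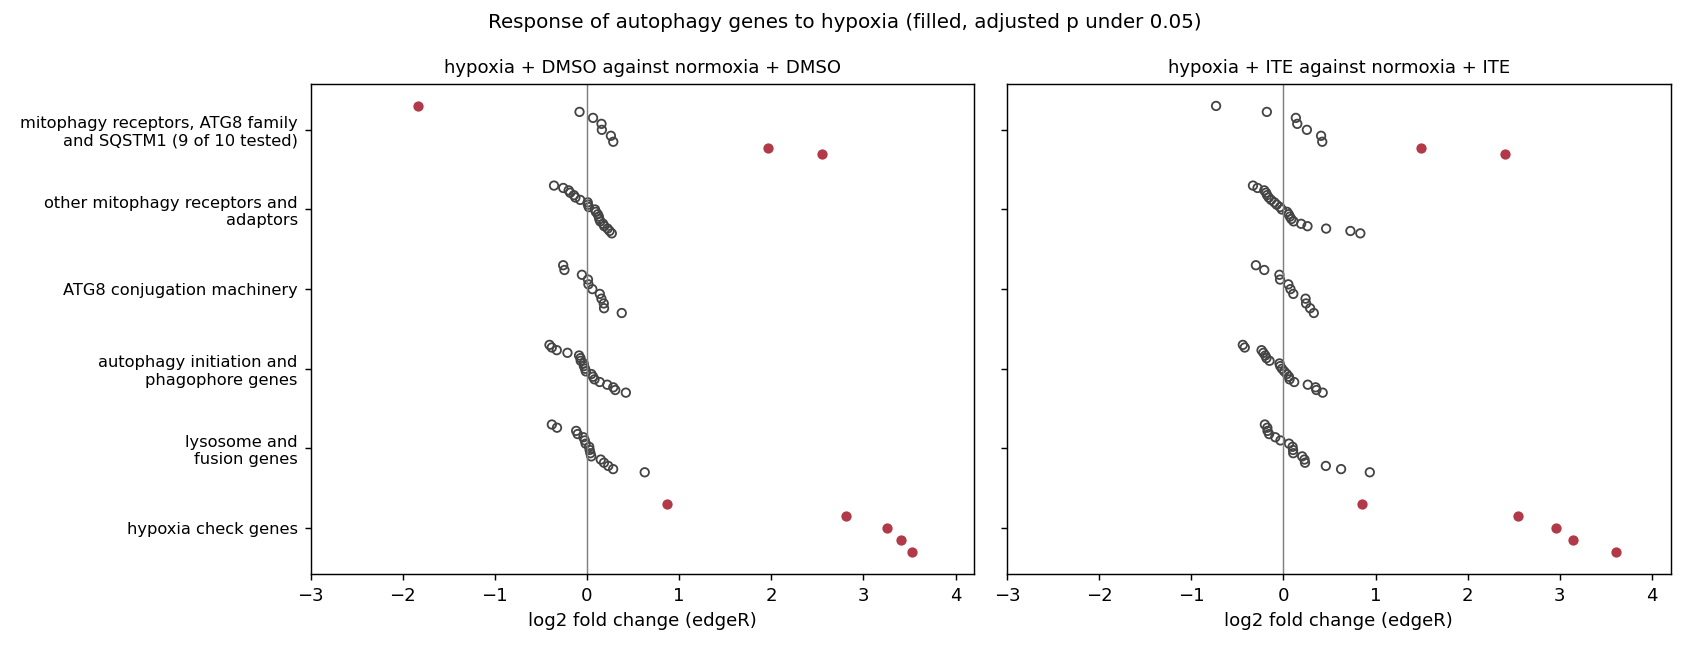
Log2 fold change in hypoxia of the 9 tested genes, of 4 lists of autophagy genes and of the hypoxia check genes, 1 point per gene, filled where the adjusted p was under 0.05. None of the 67 genes in the 4 autophagy lists was filled in either panel. Of the 7 hypoxia check genes, 5 passed the filter on low counts and were tested, and these 5 were filled in both panels.

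The rest of the pathway was taken from 4 lists with 67 genes, which were all tested. In hypoxia + DMSO against normoxia + DMSO, 0 rose and 0 fell in edgeR, and 6 had an unadjusted p under 0.05, against 9.47% of all genes tested. The list of 21 other mitophagy genes held receptors, adaptors and regulators such as PINK1, PARK2 and MFN2. Its median log2 fold change was 0.09 (range -0.36 to 0.27). The median was 0.06 for the 11 genes of the ATG8 conjugation machinery and -0.02 for the 19 initiation and phagophore genes. For the 16 lysosome and fusion genes it was 0.03, beside -0.003 over all genes. In hypoxia + ITE against normoxia + ITE, 0 passed again and 12 had an unadjusted p under 0.05, against 20.1% of all genes. The lowest adjusted p in both belonged to ATG9A, named after its values were seen, which encodes the membrane protein of vesicles that seed the autophagosome (0.42, adjusted p = 0.0635, and 0.36, adjusted p = 0.0834). Among the 21 genes of the first list and the 3 receptors described here, BNIP3 and BNIP3L were those called in hypoxia.

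The genes most like BNIP3 over the 4 group means, among 8999 genes of at least 10 CPM, were ADM, RAB20, ARRDC3, ANKZF1 and ENO2, whose centred log2 means differed from those of BNIP3 by a root mean square of 0.16 to 0.25. ADM encodes the vasodilator peptide adrenomedullin and ENO2 a glycolytic enolase. For BNIP3L they were INSIG2, KCTD11, HK2, HILPDA and PLIN2, at 0.07 to 0.12. HK2 encodes a hexokinase, and HILPDA and PLIN2 encode proteins of lipid droplets. None of the 5 was shared between these receptors. For GABARAPL1 the nearest were TOMM7, RANGRF, EFNA5, S100A2 and C9orf16 at 0.03 to 0.04, and TOMM7 encodes a part of the mitochondrial import complex that stabilises PINK1. No gene of at least 10 CPM came as near to MAP1LC3C, for which the closest, MARS2, differed by 0.54. The group means of MAP1LC3C itself ran from 0.704 CPM (hypoxia + DMSO) to 2.74 CPM (normoxia + DMSO), so genes of its own level were not searched. The distance was also not scaled for the size of a gene's changes. These are descriptions over 4 means from the same 24 libraries.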

How the data were processed

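The authors trimmed adaptors (Trim Galore 0.3.3), aligned the 150 bp paired reads of directional poly(A) libraries to GRCh37 with HISAT2, removed reads that did not map uniquely (Picard 2.0.1) and counted reads per UCSC gene with HTSeq 0.5.4p3. The strand setting is not given in the sources used here. The deposited values are raw counts per gene symbol, 1 table per library. Groups and replicate numbers came from the labels, and the study describes 6 independent replicates.

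From these counts, CPM was computed with TMM factors (edgeR 4.0.16, R 4.3.3). All 24 libraries entered 1 quasi-likelihood fit with a coefficient for each group, after filterByExpr with a minimum count of 10. Two-sided p-values were adjusted over 11735 genes by the Benjamini-Hochberg method (threshold 0.05). Ratios of log2 CPM (prior count 2) were compared by exact permutation. The ratio of MAP1LC3B to MAP1LC3A was planned and not run, since MAP1LC3A had 3 counts. Gene positions, exons and transcript lengths came from GENCODE on GRCh37, and promoters from RefSeq. Alternatives were DESeq2 1.42.0 (which the authors used), its size factors, no filter, a replicate block, limma 3.58.1 voom with quality weights, the compared groups alone, and each library left out. Chosen after seeing the data were 2 sets of 3 libraries left out and union exon length. The pipeline was tested on simulated data.

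Named were the 10 genes, 3 check genes, near copies, genes of pathway lists past the threshold and, for each gene called, the 5 of at least 10 CPM with the most similar group means, of which 1 to 3 are given for MAP1LC3C. Near copies were MAP1LC3B2, FUNDC2, GABARAPL3 (0 counts in all libraries) and BNIP3P1 (not analysed here). The genes and lists were chosen with earlier results of these data known.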

Additional observations from a re-analysis of the deposited data

Results flagged for a closer look

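In 5 of 36 groups of 6 libraries examined (9 genes in 4 groups), 1 library lay farther from the other 5 than Dixon's 95% limit. Chance flags about 1 in 20 groups, or 1.8 of 36. In normoxia + ITE replicate 2, BNIP3 had 50.5 CPM, with 78.9 CPM in the next lowest. In hypoxia + DMSO replicate 1, FUNDC1 had 18.9 CPM (next 11.3) and GABARAPL2 had 103.9 CPM (next 61.4). In hypoxia + ITE replicate 6, MAP1LC3B had 36.9 CPM (next 91.9) and SQSTM1 had 1711 CPM (next 962). The last 4 came from 2 of the 3 libraries with the lowest TMM factors. The part of these libraries' state in the values was not tested.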

How the results depend on the processing

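BNIP3 and BNIP3L kept their direction and their call in all 192 alternative values for the 3 comparisons of hypoxia with normoxia, from 1.42 to 2.62 on the log2 scale, with adjusted p of at most 3.67e-05. Leaving out each library gave 2 to 3 calls in hypoxia + DMSO against normoxia + DMSO, 2 to 3 in hypoxia + ITE against normoxia + ITE and 3 to 5 in hypoxia + ITE against normoxia + DMSO. The extra call with ITE was GABARAP without hypoxia + ITE replicate 5 (0.51, adjusted p = 0.0493). With the compared groups alone, the last comparison gave 2 calls in place of 4. With voom quality weights, normoxia + ITE against normoxia + DMSO gave 1 in place of 0 (MAP1LC3C, -1.11, adjusted p = 0.0225), and GABARAPL1 passed in hypoxia + ITE against normoxia + ITE (0.45, adjusted p = 0.0278). The share of all genes called in each of these fits is not given here. These counts alone therefore do not tell a change in these genes from a shift in calls over all genes. The causes were not tested.

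Reversed values ranged from -0.17 to 0.0367 on the log2 scale, and none of them passed. With voom weights FUNDC1 in hypoxia + DMSO was -0.0190, SQSTM1 in hypoxia + ITE against normoxia + ITE -0.0915 and BNIP3 in normoxia + ITE against normoxia + DMSO 0.0182. SQSTM1 was -0.10 without the 2 shallowest libraries and hypoxia + ITE replicate 6, and without the 3 libraries of the lowest TMM factors it was -0.0828 and FUNDC1 in hypoxia + DMSO -0.17. Leaving out each library, FUNDC1 ranged from -0.17 to 0.16 with DMSO and from -0.0258 to 0.22 with ITE (lowest without hypoxia + DMSO replicate 1 and hypoxia + ITE replicate 3), SQSTM1 with ITE from -0.0741 to 0.21 (lowest without hypoxia + ITE replicate 6) and BNIP3 in normoxia from -0.13 to 0.0367 (above 0 without normoxia + DMSO replicate 5 or normoxia + ITE replicate 2). The log2 ratio of GABARAPL1 to GABARAPL2 with DMSO ranged from -0.000995 to 0.27 (lowest without normoxia + DMSO replicate 5), and that of BNIP3 to BNIP3L from 0.54 to 0.70 with DMSO and from 0.85 to 0.98 with ITE.

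The replicate numbers were not taken as pairs, since deviations of same-numbered libraries were correlated by over 0.1 in 2 to 5 of 6 pairs between groups. For each pair of groups, though, the mean correlation of same-numbered libraries was above that of libraries with other numbers. It ran from 0.0247 against 0.00296 (hypoxia + DMSO with hypoxia + ITE) to 0.237 against -0.0496 (normoxia + DMSO with normoxia + ITE). With the replicate block MAP1LC3C in hypoxia + DMSO was -1.59 (adjusted p = 0.0517), which left 2 calls there, and no other call changed. The exact sign-flip test of the BNIP3 to BNIP3L ratio over 6 pairs gave p = 0.0312, its smallest, for both comparisons.

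Per kilobase of all annotated exons, levels in normoxia + DMSO were 20.1 CPM for BNIP3, 15.7 for BNIP3L, 8.17 for FUNDC1, 19.5 for MAP1LC3B, 71.3 for GABARAP, 12.4 for GABARAPL1, 17.7 for GABARAPL2 and 120 for SQSTM1, so the order of levels depends on the transcript assumed. DESeq2 gave MAP1LC3C no adjusted p in hypoxia + ITE against normoxia + DMSO. MAP1LC3C did not pass the filter when only the 2 groups in DMSO, or only those in hypoxia, were fitted. Of the 9 tested genes MAP1LC3C had the fewest counts, 54 in all of hypoxia + DMSO.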
